A study of Rattus norvegicus with 4 samples.

Results

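The nuclear genes for subunits of the mitochondrial respiratory chain and ATP synthase were followed in cultured rat neural stem/progenitor cells. Members were taken by symbol: those starting with Ndufa, Ndufb, Ndufc, Ndufs, Ndufv, Uqcr, Atp5, Cox4, Cox5, Cox6, Cox7 or Cox8, together with Sdha, Sdhb, Sdhc, Sdhd and Cyc1, without the Ndufaf assembly factors. This gave 82 of 16881 gene symbols: 34 in complex I, 4 in complex II, 9 in complex III, 18 in complex IV and 17 in complex V, the ATP synthase. The test took genes that reached 10 counts in any library, which kept 79 members. The other 3 were Cox8b and Cox8c, with 0 counts in every library, and the pseudogene Cox6c-ps1, with 1 and 5 counts in differentiation medium on PUCL@CNT1 and PUCL, and 0 and 1 in maintenance medium.

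The study grew wild-type rat cells on PUCL@CNT1, of a scaffold type that its title calls electroconductive, or on bare PUCL. The 4 libraries were PUCL@CNT1 in differentiation medium, PUCL in differentiation medium, PUCL@CNT1 in maintenance medium and PUCL in maintenance medium, with 1 library in each group and so no replicates. Maintenance cultures were sampled after 24 h in knockout DMEM/F12 with a neural supplement. Differentiation cultures went on for a further 1.5 d in B-27 Plus neuronal medium, so their medium differed and so did their time in culture. Strain, age of the animals, and the number of animals or cultures pooled were not given in the sources used here. Libraries were made with QuantSeq reagents (Lexogen) from 500 ng of total RNA, so a read counts a transcript by its 3′ end, whatever its length.

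Electrons enter the chain at complex I (NADH dehydrogenase) or complex II (succinate dehydrogenase), pass through complex III and cytochrome c, and reach oxygen at complex IV (cytochrome c oxidase). Complexes I, III and IV pump protons, and complex V uses the proton gradient to make ATP. Mitochondrial DNA encodes the catalytic centre of complex IV and several membrane subunits of complexes I, III and V, and nuclear genes encode the rest. In neural tissue, neurons depend strongly on oxidative phosphorylation, whereas proliferating progenitors are known for a larger share of glycolysis. No mitochondrial DNA-encoded transcript was listed in the tables (0 symbols), so the values below concern nuclear genes alone.

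The libraries held 6855984 and 6580894 counts in differentiation medium on PUCL@CNT1 and PUCL, and 6035848 and 6502918 in maintenance medium. Ribosomal RNA entries took 8.46% and 13.4% of counts in differentiation medium on PUCL@CNT1 and PUCL, and 9.03% and 11.3% in maintenance medium. Among markers of neural stem/progenitor cells, 6 of 7 had 10 or more counts and Msi1 was at 0. Their summed level was 10308 and 7942 counts per 1000000 library counts (CPM) in differentiation medium on PUCL@CNT1 and PUCL, and 7175 and 6637 CPM in maintenance medium. Summed oligodendrocyte lineage markers (5 of 5 with 10 or more counts) stood at 1259 and 1318 CPM in differentiation medium and 758 and 846 CPM in maintenance medium in the same order of platforms. Astrocyte markers (5 of 5) stood at 414 and 1233 CPM, and at 338 and 474 CPM. Of these, Gfap, Aqp4 and Aldh1l1 were at 0 counts in some libraries and at 31 or fewer in all. The astrocyte sum therefore rested on S100b and Slc1a3. Neuron markers (6 of 6) stood at 53.7 and 89.7 CPM, and at 123 and 135 CPM, and fibroblast and mural markers (4 of 5, Dcn at 0) at 353 and 492 CPM, and at 789 and 1099 CPM. Single genes made up most of several sums. Map2 led the neuron sum, with 238 and 407 counts in differentiation medium and 614 and 552 in maintenance medium. Among the neuron markers, Dcx alone was higher in differentiation medium on both platforms (61 and 79 counts, then 39 and 48). Vim led the progenitor sum, whereas Sox2 was highest on PUCL in differentiation medium (6301 counts). Acta2 led the fibroblast and mural sum. Of 5 microglia markers 4 were at 0, and of 4 endothelial markers Pecam1 and Cdh5 were at 0. These levels move with medium or platform, and their part in the results on the subunit genes was not tested. In bulk samples, a change in the number of cells of a type and a change in RNA per cell cannot be told apart.

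Most subunit genes had more counts in differentiation medium than in maintenance medium, by small ratios. The question was how the medium switch, which the study used to induce neural differentiation, changed each gene on both platforms. Levels here are CPM with library sizes adjusted by TMM (trimmed mean of M values), and log2 ratios set 1 library against 1 other with a prior count of 0.5. On PUCL@CNT1, 68 of 79 members had a ratio above 0 (49.1% of all genes tested did), with a median of 0.40 against -0.02 over all 10516 genes tested. On PUCL, 55 of 79 did (51.8% of all genes), with a median of 0.22 against 0.03. Both platforms gave a ratio above 0 for 49 members (29.6% of all genes) and a ratio below 0 for 5, Cyc1 and Cox4i2 among them. Both differentiation libraries stood above both maintenance libraries for 40 of 79 members (19.4% of all genes) and below both for 4 (19.3%). Subunit genes are abundant transcripts with little counting error, so the same values were taken over abundant genes. Of 52 members averaging at least 1000 counts, 33 stood above in both differentiation libraries, against 27.6% of the 1268 genes of that abundance.

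**Figure D1:**
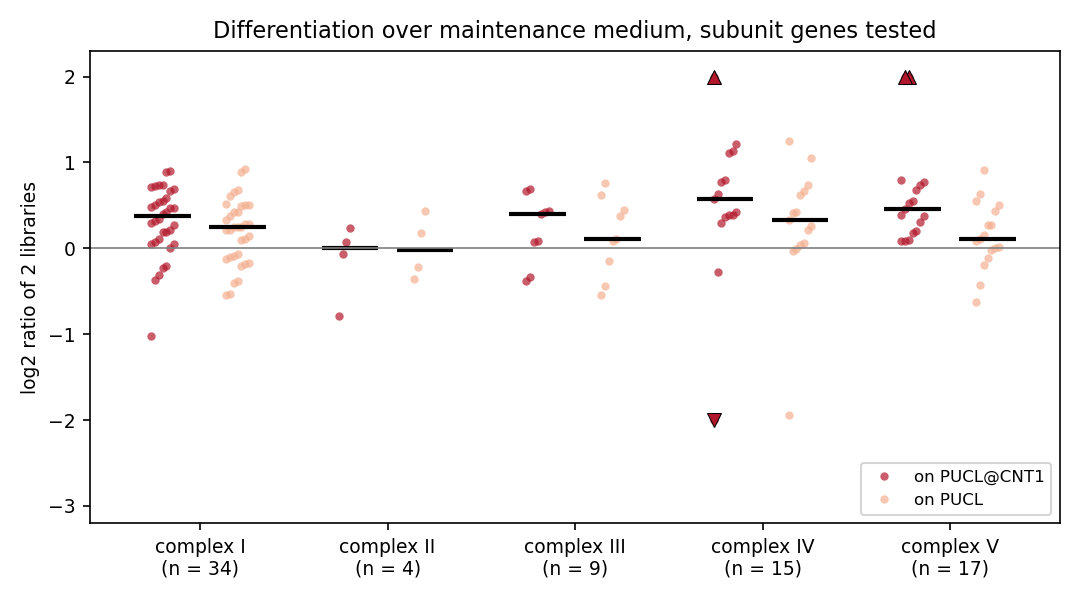
Log2 ratio of differentiation over maintenance medium for the 79 subunit genes tested, by complex, on PUCL@CNT1 (dark) and on PUCL (light); each point is 1 gene and the bar is the median. Values beyond 2 are drawn as triangles at that limit. Medians are 0.57 and 0.33 in complex IV and 0.01 and -0.02 in complex II.

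After the test, 6 of 79 members were called higher in differentiation medium and 0 lower, against 1.8% of all genes tested called higher and 1.02% called lower. The test was edgeR's quasi-likelihood test with platform as an additive term, which used the 2 platforms as repeats of the medium change, and a Benjamini-Hochberg adjusted p below 0.05. The 6 were the complex IV genes Ndufa4, Cox8a and Cox7a2l and the complex I genes Ndufb4, Ndufb3 and Ndufa2. Among genes averaging at least 1000 counts, the same fit called 6 of 52 members (11.5%) and 6.7% of all such genes higher. At an unadjusted p below 0.05, edgeR counted 22 members higher and 0 lower, against 6.22% and 5.89% of all genes. The fitted change was above 0 for 64 of 79 members (50.2% of all genes), and for 46 of 52 abundant members (52.8% of genes of that abundance).

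Ndufa4, first described with complex I and now placed in complex IV, had 1872 and 1306 CPM in differentiation medium on PUCL@CNT1 and PUCL, against 1078 and 847 CPM in maintenance medium. Both differentiation libraries were higher than both maintenance libraries, and PUCL@CNT1 was the higher platform in each medium. It rose by a fitted log2 of 0.71 (SE 0.159, edgeR adjusted p = 0.00289), or 1.64-fold. Cox8a, a small subunit of complex IV found in most tissues, had 2606 and 2430.2 CPM in differentiation medium on PUCL@CNT1 and PUCL, against 1205 and 2099 CPM in maintenance medium. The groups did not overlap, but the maintenance library on PUCL@CNT1 stood well below the other 3, so that the log2 ratio was 1.11 on PUCL@CNT1 and 0.21 on PUCL. Cox8a rose by a fitted log2 of 0.66 (SE 0.152, edgeR adjusted p = 0.00393). Cox7a2l, which is known for joining complexes III and IV into supercomplexes, had 377 and 295 CPM in differentiation medium on PUCL@CNT1 and PUCL, against 173 and 219.6 CPM in maintenance medium. Its groups did not overlap, with the low value again in maintenance medium on PUCL@CNT1. Cox7a2l rose by a fitted log2 of 0.78 (SE 0.236, edgeR adjusted p = 0.0497), just inside the threshold.

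Ndufb4 and Ndufb3 encode accessory subunits of the membrane arm of complex I. Ndufb4 had 495 and 617 CPM in differentiation medium on PUCL@CNT1 and PUCL, against 307 and 324 CPM in maintenance medium. Ndufb3 had 490.4 and 394 CPM in differentiation medium, against 294 and 213 CPM in maintenance medium, in the same order of platforms. For both genes the media were fully apart, and the ratio was similar on both platforms (0.69 and 0.93 for Ndufb4, 0.74 and 0.89 for Ndufb3, on PUCL@CNT1 and PUCL). Both rose by a fitted log2 of 0.81, with SE 0.202 and edgeR adjusted p = 0.00981 for Ndufb4 and SE 0.214 and adjusted p = 0.0159 for Ndufb3. Ndufa2, an accessory subunit of the matrix arm of complex I, had 586 and 582 CPM in differentiation medium and 368 and 368 CPM in maintenance medium. Its platforms gave nearly equal levels in each medium, and it rose by a fitted log2 of 0.67 (SE 0.197, edgeR adjusted p = 0.0435). The calls of Ndufa2 and Cox7a2l were lost in DESeq2, with DESeq2 size factors or total counts, and with no filter, and were kept in 3 of 10 alternatives, against 7 of 10 for each of the other 4 genes.

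**Figure D2:**
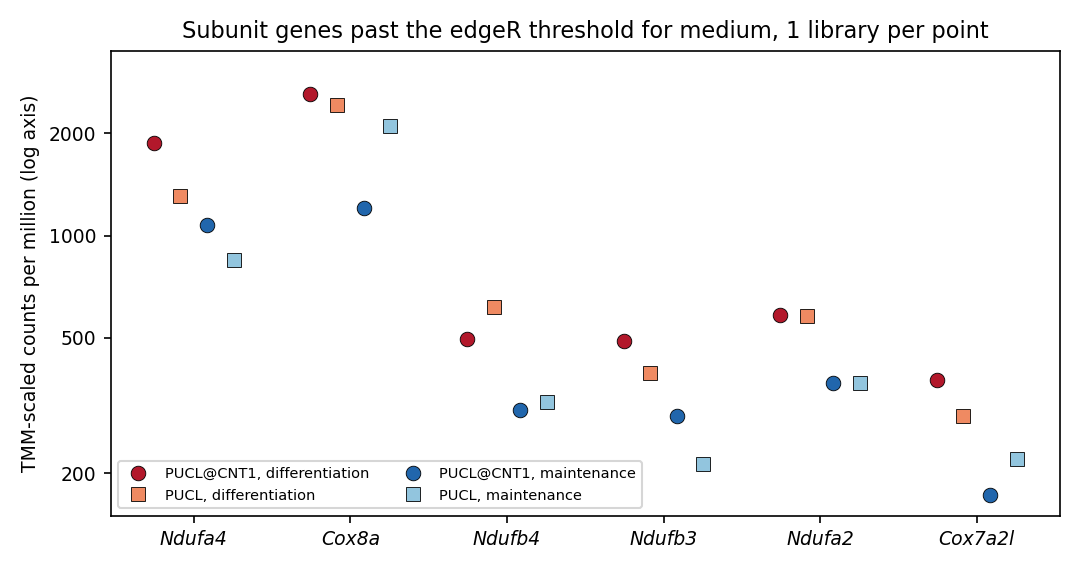
Levels of the 6 genes past the edgeR threshold for medium, in TMM-scaled CPM on a log axis, with 1 point per library. For each gene both differentiation libraries (red and orange) lie above both maintenance libraries (blues); Cox8a on PUCL in maintenance medium, at 2099 CPM, lies closest to them.

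The number called depended on the setting. In refits of edgeR without the platform term, or restricted to genes averaging at least 50 or at least 1000 counts, 0 members were called, and leaving out 1 library together with the platform term left 1 (Ndufb4, without PUCL@CNT1 in differentiation medium), 2 (Ndufa4 and Ndufb3, without PUCL in differentiation medium) or 0 (without either maintenance library). Limma-voom called 11, adding Uqcr10 (fitted log2 0.71, edgeR adjusted p = 0.0539), Atp5o (0.66, 0.0700), Cox5b (0.52, 0.0895), Uqcr11 (0.52, 0.109) and Ndufa1 (0.50, 0.136), which did not pass in edgeR.

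The promoters of the 6 genes are shown because genes of the respiratory chain are known to share binding motifs for nuclear respiratory factor 1 (NRF1), ETS factors such as GABP, and YY1. Windows from 250 bases before to 50 after the annotated start were taken from RefSeq on the rat build GRCr8, which is not the rn6 build of the counts. They were searched on both strands for GCGCA, any base and GCGC (NRF1), CCGGAAG (ETS) and AAGATGGC (YY1). Each is printed 5′ to 3′ on the gene's strand, with matches in capitals.
Ndufa4 (chr4:40975510-40975809, minus strand): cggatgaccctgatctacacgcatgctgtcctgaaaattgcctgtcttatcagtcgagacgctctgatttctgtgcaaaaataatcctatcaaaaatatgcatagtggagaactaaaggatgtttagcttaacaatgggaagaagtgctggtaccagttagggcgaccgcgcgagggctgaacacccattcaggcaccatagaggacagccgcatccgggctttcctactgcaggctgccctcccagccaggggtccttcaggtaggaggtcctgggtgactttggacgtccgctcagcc
Cox8a (chr1:213833574-213833873, minus strand): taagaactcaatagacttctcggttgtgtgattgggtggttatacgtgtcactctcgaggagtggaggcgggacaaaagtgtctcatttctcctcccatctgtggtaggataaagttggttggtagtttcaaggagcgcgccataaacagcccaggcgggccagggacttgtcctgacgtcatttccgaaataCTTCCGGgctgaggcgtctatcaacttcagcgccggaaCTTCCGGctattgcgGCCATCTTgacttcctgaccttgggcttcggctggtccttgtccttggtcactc
Ndufb4 (chr11:76568928-76569227, plus strand): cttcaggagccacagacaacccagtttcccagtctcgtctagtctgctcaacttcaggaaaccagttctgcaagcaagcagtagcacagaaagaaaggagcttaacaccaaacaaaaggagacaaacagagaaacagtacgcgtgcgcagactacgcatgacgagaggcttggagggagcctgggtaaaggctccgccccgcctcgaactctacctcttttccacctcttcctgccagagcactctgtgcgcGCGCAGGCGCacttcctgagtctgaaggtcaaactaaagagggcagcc
Ndufb3 (chr9:67623167-67623466, plus strand): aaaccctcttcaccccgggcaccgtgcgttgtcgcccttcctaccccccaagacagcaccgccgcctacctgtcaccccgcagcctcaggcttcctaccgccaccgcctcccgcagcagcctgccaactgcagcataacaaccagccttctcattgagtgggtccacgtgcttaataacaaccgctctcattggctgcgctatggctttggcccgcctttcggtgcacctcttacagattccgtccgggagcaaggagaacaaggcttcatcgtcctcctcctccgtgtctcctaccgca
Ndufa2 (chr18:28631835-28632134, minus strand): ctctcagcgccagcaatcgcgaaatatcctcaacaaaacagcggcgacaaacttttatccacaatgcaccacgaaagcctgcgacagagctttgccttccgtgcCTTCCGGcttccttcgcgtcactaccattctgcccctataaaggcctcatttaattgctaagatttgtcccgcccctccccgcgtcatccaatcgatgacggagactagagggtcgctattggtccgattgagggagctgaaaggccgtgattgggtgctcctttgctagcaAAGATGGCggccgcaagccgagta
Cox7a2l (chr6:16936324-16936623, plus strand): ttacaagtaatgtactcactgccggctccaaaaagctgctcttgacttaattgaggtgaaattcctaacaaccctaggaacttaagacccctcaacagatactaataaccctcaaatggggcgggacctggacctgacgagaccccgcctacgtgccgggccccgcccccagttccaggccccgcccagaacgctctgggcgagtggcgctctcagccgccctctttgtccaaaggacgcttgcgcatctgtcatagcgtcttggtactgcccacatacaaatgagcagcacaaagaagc
None of the matches printed overlaps another. Ndufb4 held 1 NRF1 match, Ndufa2 held 1 ETS and 1 YY1 match, and Cox8a held 2 ETS matches and 1 YY1 match. Ndufa4, Ndufb3 and Cox7a2l held none of these letters in the window.

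Of the 69 members with a window, 14 held the NRF1 motif (20.3%), 19 the ETS motif (27.5%) and 15 the YY1 motif (21.7%). Among all 33469 windows the shares were 4.25%, 8.75% and 3.17%, and among 8432 windows of genes tested here they were 10.3%, 18.1% and 5.66%. Those 8432 windows cover 8026 of the 10516 genes tested, matched by current symbol only, with several windows for some genes. Members were matched with older symbols included and had 1 window each, so the shares are not fully alike in basis. Any of the motifs was found for 39 members (56.5%), against 29.6% of windows of genes tested. The NRF1 motif was found for 7 of 30 complex I genes and 5 of 15 complex V genes, and for 0 of 14 complex IV genes. The median fitted medium log2 was 0.32 in the 39 members tested that held any of them and 0.26 in the 28 that held none, and this difference was not tested. A match is a description of letters and was not tested for binding.

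Complex I, the entry point for NADH, had ratios above 0 in most of its genes. The median log2 ratio was 0.37 on PUCL@CNT1 (29 of 34 above 0) and 0.25 on PUCL (23 of 34). Of the 34, 3 were called higher, against 1.8% of all genes and 6.7% of those averaging at least 1000 counts. The conserved core subunits, which carry the flavin and iron-sulfur clusters and the quinone site, were set apart from the accessory subunits, a division made after the values were known. The 7 nuclear core genes had a median fitted log2 of -0.05 with 3 above 0, and the 27 accessory genes had 0.32 with 24 above 0. By platform, the core median log2 ratio was 0.01 on PUCL@CNT1 and 0.22 on PUCL, with 4 of 7 above 0 on each. The accessory median was 0.42 on PUCL@CNT1 (25 of 27 above 0) and 0.25 on PUCL (19 of 27). The medians of core and accessory genes thus lay apart on PUCL@CNT1 and close together on PUCL. Ndufs7, a core subunit of the quinone module, had 79.9 and 113 CPM in differentiation medium on PUCL@CNT1 and PUCL, against 103 and 130.4 CPM in maintenance medium. Its level was lower in differentiation medium on each platform, the media overlapped, and it did not pass the test. Ndufs8, of the same module, had 83.6 and 81.0 CPM in differentiation medium and 50.7 and 57.5 CPM in maintenance medium, so the core genes did not all lie one way. The difference between core and accessory genes was not tested.

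**Figure D3:**
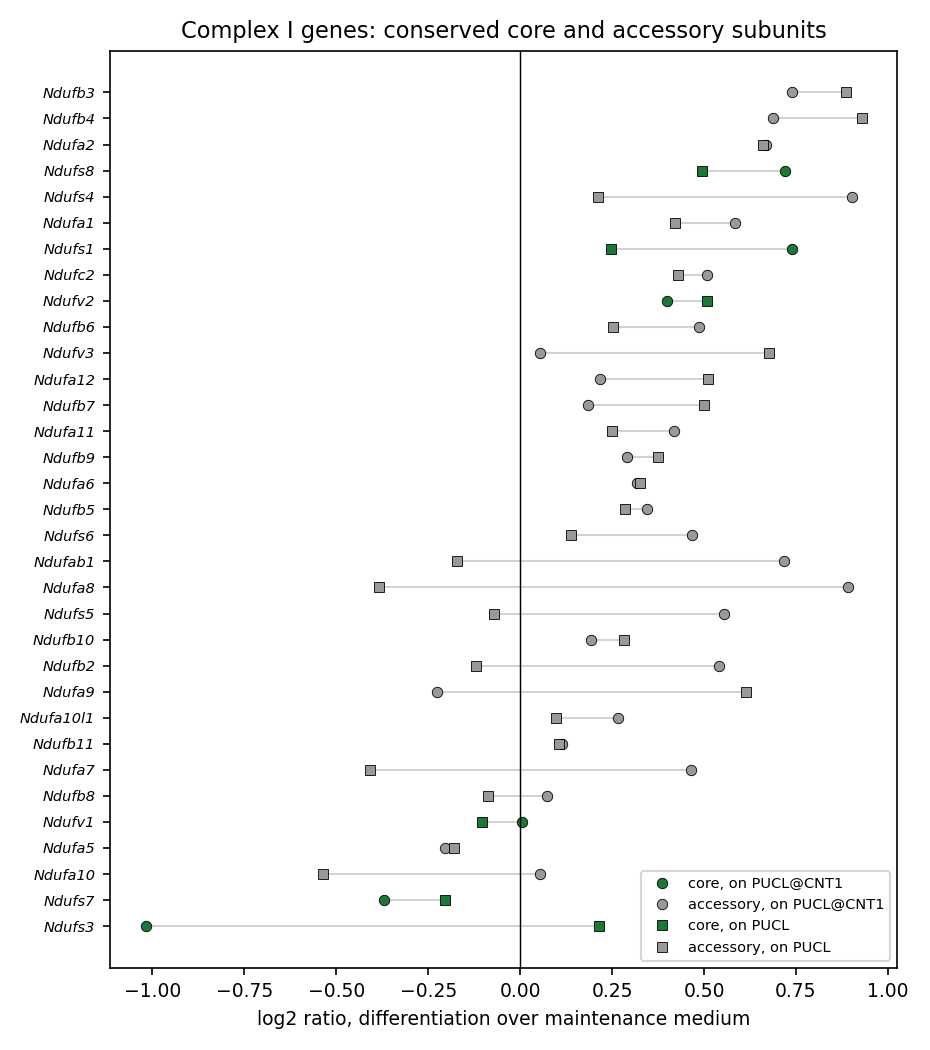
Log2 ratio of differentiation over maintenance medium for 33 of the 34 complex I genes, ordered by the fitted medium change, with circles for PUCL@CNT1 and squares for PUCL and core subunits in green. Ndufb3 and Ndufb4 take the highest places, and the core genes Ndufs3 and Ndufs7 the lowest of those drawn.

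Among the most abundant complex I transcripts, Ndufa1, a small membrane subunit, had 929 and 689.8 CPM in differentiation medium on PUCL@CNT1 and PUCL, against 619.6 and 516 CPM in maintenance medium. Its media did not overlap, and the edgeR threshold was not passed. Ndufb11 had 769 and 667 CPM in differentiation medium and 710.4 and 620.0 CPM in maintenance medium, and Ndufb2 had 583 and 568 CPM in differentiation medium and 401 and 616 CPM in maintenance medium. For both of these membrane arm subunits the media overlapped. Ndufa8, an accessory subunit facing the intermembrane space, had 186 and 217 counts in differentiation medium on PUCL@CNT1 and PUCL, against 94 and 289 counts in maintenance medium. Its lowest and highest libraries were both in maintenance medium.

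Complex II, which oxidises succinate and belongs to the citric acid cycle as well, had medians close to 0. Its 4 genes had median log2 ratios of 0.01 on PUCL@CNT1 and -0.02 on PUCL, and 0 of 4 were called (1.8% of all genes higher and 1.02% lower). For none did both differentiation libraries lie above both maintenance libraries (19.4% of all genes). Sdha, the flavoprotein, had 80.8 and 133 CPM in differentiation medium on PUCL@CNT1 and PUCL, against 139 and 97.8 CPM in maintenance medium. The platforms were in opposite order in the media. Sdhb, the iron-sulfur subunit, had 180.3 and 146 CPM in differentiation medium, against 188 and 129.6 CPM in maintenance medium. For the membrane anchors, Sdhc had 437 and 313 CPM in differentiation medium, against 415 and 400.3 CPM in maintenance medium. Sdhd had 165 and 132 CPM in differentiation medium, against 139.9 and 153 CPM in maintenance medium. In each of the 4 genes the media overlapped.

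Complex III genes had a median log2 ratio of 0.40 on PUCL@CNT1 (7 of 9 above 0) and 0.11 on PUCL (6 of 9). Of the 9, 0 were called, against 1.8% of all genes called higher and 1.02% lower. Uqcr10, a small accessory subunit, had 420.4 and 389 CPM in differentiation medium on PUCL@CNT1 and PUCL, against 265 and 230.2 CPM in maintenance medium. Uqcr11, another small subunit, had 794 and 854 CPM in differentiation medium, against 589.7 and 556 CPM in maintenance medium. Both genes had fully separate media, and neither passed the edgeR threshold. Cyc1, the haem-bearing cytochrome c1 subunit that passes electrons to cytochrome c, ran the other way, with 242 and 262 CPM in differentiation medium and 305 and 290.2 CPM in maintenance medium, and did not pass the test. Uqcrh, the hinge subunit beside Cyc1, had 1639.5 and 1116 CPM in differentiation medium, against 1242 and 1051 CPM in maintenance medium. Uqcrq had 782 and 666 CPM in differentiation medium, against 485 and 617 CPM in maintenance medium. The media overlapped for Uqcrh and were separate for Uqcrq. Uqcrc1, a large matrix-facing subunit, had 131 and 99.3 CPM in differentiation medium, against 97.2 and 144 CPM in maintenance medium, with both extremes in maintenance medium.

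Complex IV, the oxygen-consuming enzyme, had the highest medians of the 5 complexes, with 0.57 on PUCL@CNT1 (13 of 15 above 0) and 0.33 on PUCL (12 of 15). The rank of the complexes was not tested. Of its 15 genes tested, 3 were called higher, against 1.8% of all genes and 6.7% of those averaging at least 1000 counts. Both differentiation libraries lay above both maintenance libraries for 10, against 19.4% and 27.6%. Cox7c, a small membrane subunit, had 3714 and 2795 CPM in differentiation medium on PUCL@CNT1 and PUCL, against 2877.5 and 2815 CPM in maintenance medium. Only the PUCL@CNT1 differentiation library stood apart, and the media overlapped.

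Several complex IV subunits exist as tissue isoforms, and those of each pair that were found by symbol are given side by side. Cox4i1 had 169.8 and 203 CPM in differentiation medium on PUCL@CNT1 and PUCL, against 129.8 and 122 CPM in maintenance medium. Its partner Cox4i2, known from lung and from hypoxia, had 0 and 5 counts in differentiation medium, against 16 and 21 counts in maintenance medium. Media were separate for both genes, in opposite directions, and neither passed the test. On PUCL@CNT1, Cox4i2 was at least 5.68-fold lower in differentiation medium, with the 0 set to a floor of 3 counts in that library.

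Cox6a1 had 1473 and 1310.2 CPM in differentiation medium on PUCL@CNT1 and PUCL, against 859.8 and 1272 CPM in maintenance medium, with separate media. The heart and muscle isoform Cox6a2 had 7 and 31 counts in differentiation medium, against 8 and 15 counts in maintenance medium, and its media overlapped. Striated muscle markers (5 of 5 with 10 or more counts in some library) summed to 93.2 and 57.7 CPM in differentiation medium and 38.8 and 67.4 CPM in maintenance medium. Ckm made up most of this sum, with 538 and 294 counts in differentiation medium and 214 and 383 in maintenance medium. Myh7 and Tnnt2 had 20 or fewer counts in every library. Cox6b2, known from testis, had 136 and 120 counts in differentiation medium, against 29 and 125 counts in maintenance medium, and 3 of its 4 libraries were alike. Cox7a2 had 629 and 520.2 CPM in differentiation medium, against 468 and 435 CPM in maintenance medium, with separate media. Ndufa4l2, the hypoxia-linked relative of Ndufa4, had 28 and 3 counts in differentiation medium and 11 and 1 in maintenance medium. It was higher on PUCL@CNT1 in both media, at counts that give wide intervals. Cox8b and Cox8c, at 0 counts, could not have exceeded 0.451 to 0.480 CPM if 3 counts are taken as the limit that a count of 0 allows.

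Complex V genes, taken by the symbol prefix Atp5, had ratios above 0 in 17 of 17 on PUCL@CNT1 (median 0.45) and in 12 of 17 on PUCL (median 0.11). Of the 17, 0 were called, against 1.8% of all genes called higher and 1.02% lower. Atp5g1, Atp5g2 and Atp5g3 encode the same mature c subunit of the rotor. Atp5g3 had 3582 and 2838 CPM in differentiation medium on PUCL@CNT1 and PUCL, against 2619 and 2875 CPM in maintenance medium. Atp5g2 had 917 and 773 CPM in differentiation medium, against 637 and 1038 CPM in maintenance medium. Atp5g1 had 864 and 1111 CPM in differentiation medium, against 762 and 1001 CPM in maintenance medium. For all 3 the media overlapped, and Atp5g1 was the lower on PUCL@CNT1 in both media.

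The rotor shaft gene Atp5c1 had 298 and 229.5 CPM in differentiation medium on PUCL@CNT1 and PUCL, against 278 and 262 CPM in maintenance medium. Atp5h, a peripheral stalk subunit, had 770.1 and 457 CPM in differentiation medium, against 450.3 and 455 CPM in maintenance medium. The PUCL@CNT1 differentiation library alone was high for Atp5h, and the other 3 were nearly equal. Atp5l had 1869 and 1499 CPM in differentiation medium, against 1273 and 1408 CPM in maintenance medium, and Atp5i had 1058 and 1193 CPM in differentiation medium, against 923 and 884 CPM in maintenance medium. Both encode small membrane subunits, and for both the media were separate without passing the test. Atp5s and Atp5sl belong to the group by name only, and their current RefSeq symbols are Dmac2l and Dmac2. Both are counted in the medians and sums given for complex V. Atp5s had 93 and 48 counts in differentiation medium on PUCL@CNT1 and PUCL, against 9 and 76 counts in maintenance medium. Atp5sl had 182 and 150 counts in differentiation medium, against 42 and 81 counts in maintenance medium. Media overlapped for Atp5s and were separate for Atp5sl.

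Summed over each complex, counts were higher in differentiation medium for complexes I, III, IV and V and not for complex II. All 82 members took 4.16% and 3.62% of the library in differentiation medium on PUCL@CNT1 and PUCL, and 3.25% and 3.31% in maintenance medium. The scaled sum was 1.36-fold higher in differentiation medium on PUCL@CNT1 and 1.13-fold higher on PUCL. By complex, on PUCL@CNT1 and PUCL, the fold was 1.29 and 1.18 for complex I, 0.978 and 0.927 for complex II, and 1.25 and 1.16 for complex III. It was 1.56 and 1.17 for complex IV and 1.33 and 1.07 for complex V. These sums rest on 1 library per group, weight the abundant genes most, and have no test.

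**Figure D4:**
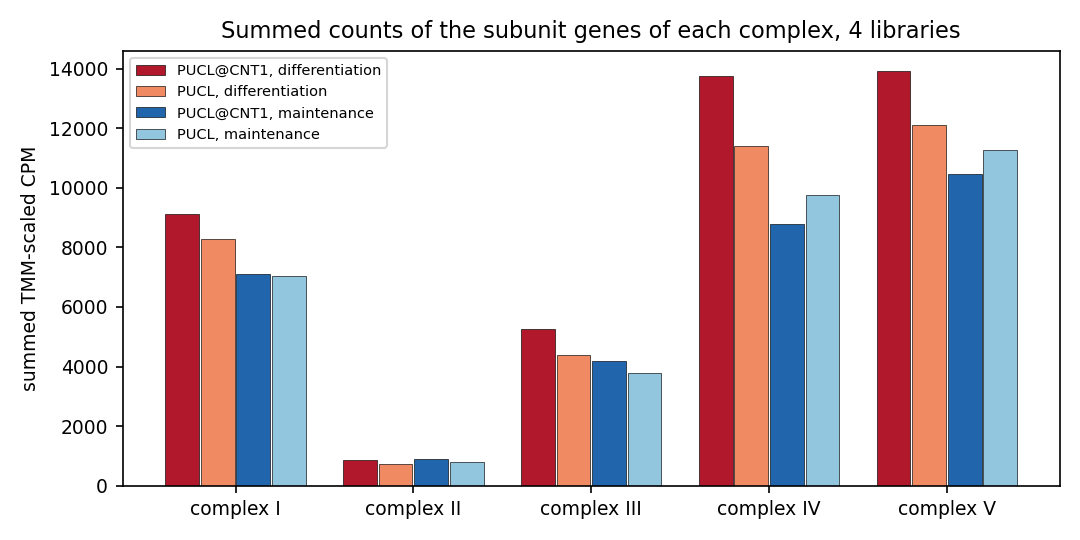
Summed TMM-scaled CPM of the subunit genes of each complex in the 4 libraries, from 0, with 1 bar per library and no error bar because each group has 1 library. The PUCL@CNT1 differentiation library is the highest in complexes I, III, IV and V, and in complex II both PUCL@CNT1 bars lie above both PUCL bars (862 and 882 against 724 and 781 CPM).

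For the platform, the question was whether PUCL@CNT1 differed from bare PUCL in each medium. These ratios use the same 4 libraries as the medium ratios. No member was called: 0 higher and 0 lower in edgeR with medium as an additive term, against 0.209% and 0.247% of all genes. DESeq2 and limma-voom also called 0. At an unadjusted p below 0.05, edgeR counted 3 higher on PUCL@CNT1 and 2 lower, against 3.38% and 3.58% of all genes. The higher ones were Ndufa4 (fitted log2 0.43, edgeR adjusted p = 0.346), Uqcrh (0.40, 0.479) and Uqcrb (0.44, 0.534), and the lower ones Cox8a (-0.35, 0.567) and Atp5g1 (-0.38, 0.605). Uqcrb, which helps form the quinone pocket of complex III, had 744 and 707 CPM on PUCL@CNT1 in differentiation and maintenance medium, against 624 and 457 CPM on PUCL. Its PUCL@CNT1 libraries were both above its PUCL libraries. Both PUCL@CNT1 libraries lay above both PUCL libraries for 15 of 79 members (15.2% of all genes) and below for 6 (14.9%).

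The platform ratio was mostly above 0 in differentiation medium and balanced in maintenance medium. In differentiation medium, 59 of 79 members were above 0 (48.7% of all genes), with a median log2 of 0.19 against -0.03 over all genes and 0.10 over genes averaging at least 1000 counts. Of members of that abundance 43 of 52 were above 0, against 59.3% of such genes. In maintenance medium, 42 of 79 were above 0 (52% of all genes), with a median of 0.04 against 0.03 over all genes. The medians in differentiation and in maintenance medium were 0.17 and -0.03 for complex IV, 0.24 and -0.06 for complex V, 0.14 and 0.05 for complex I, 0.23 and 0.09 for complex III, and 0.31 and 0.28 for complex II. Ndufa10l1, a copy-like relative of the complex I gene Ndufa10 whose reads may be shared with it, had 43.9 and 36.5 CPM on PUCL@CNT1 in differentiation and maintenance medium, against 26.3 and 24.6 CPM on PUCL. Its platforms did not overlap, and it did not pass the test.

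**Figure D5:**
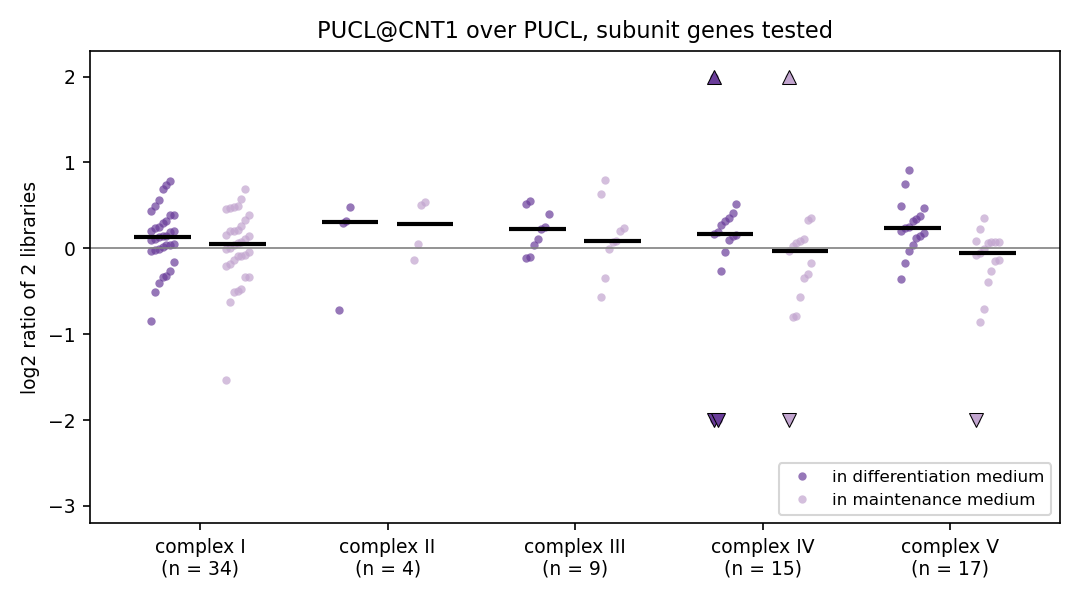
Log2 ratio of PUCL@CNT1 over PUCL for the 79 subunit genes tested, by complex, in differentiation medium (dark) and maintenance medium (light); each point is 1 gene, the bar is the median, and values beyond 2 are drawn as triangles at that limit. The complex V median is 0.24 in differentiation medium and -0.06 in maintenance medium.

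Few members differed strongly between single libraries. A rule of size asked for at least 2-fold with the nearer 95% counting bound beyond 1.5-fold, which carries no p-value and covers counting error only. Differentiation over maintenance medium on PUCL@CNT1 gave 5 of 79 higher (16.5% of all genes), which were Atp5s, Cox6b2, Atp5sl, Cox7a2l and Cox8a, and 2 lower (14.5%), which were Ndufs3 and Cox4i2. On PUCL it gave 0 higher (16%) and 1 lower (15.2%), Cox4i2. PUCL@CNT1 over PUCL gave 1 higher in each medium, Ndufa4l2 (15.2% of all genes in differentiation medium and 12.1% in maintenance medium). It gave 1 lower in differentiation medium, Cox6a2 (15.6%), and 3 lower in maintenance medium, Ndufa8, Cox6b2 and Atp5s (13.9%). These shares are below those of all genes tested, most of which have lower counts. Among genes averaging at least 1000 counts, differentiation over maintenance medium on PUCL@CNT1 gave 2 of 52 members and 43 of 1268 genes higher, and 0 members and 28 genes lower, so few genes of that abundance passed the rule in either set.

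The medium ratio on PUCL@CNT1 minus that on PUCL is the same number as the change of the platform ratio between media. It had a median of 0.17 over the members (51 of 79 above 0), against 0.03 over all genes and 0.08 over genes averaging at least 1000 counts, and no test was possible with 1 library per group. By the rule of size it was higher for 3 members (15.4% of all genes), Atp5s, Cox6b2 and Ndufa8, and lower for 2 (14.1%), Ndufs3 and Sdha. Ndufs3, a core subunit of the quinone module, had 64.2 and 116 CPM in differentiation medium on PUCL@CNT1 and PUCL, against 130.1 and 99.8 CPM in maintenance medium. For Atp5s, Cox6b2 and Ndufa8 the maintenance library on PUCL@CNT1 was the lowest of the 4, and for Ndufs3 and Sdha the differentiation library on PUCL@CNT1 was the lowest.

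Genes that build or regulate the chain had median fitted log2 changes close to or below 0. Of 37 assembly factors found among 48 listed, 1 was called higher (2.70%, against 1.8% of all genes tested) and 0 lower (1.02%), with a median fitted log2 of -0.01. At these shares, short lists hold few or no calls, so the counts set none of the lists apart from all genes. The assembly factor called was Sdhaf1, listed in the files as RGD1562079, which helps insert iron-sulfur clusters into complex II. Sdhaf1 had 135 and 139 CPM in differentiation medium on PUCL@CNT1 and PUCL, against 54.1 and 65.5 CPM in maintenance medium, with separate groups, and rose by a fitted log2 of 1.20 (SE 0.322, edgeR adjusted p = 0.0187). It was not called in DESeq2 or among genes averaging at least 50 counts. Of 13 genes for coenzyme Q and cytochrome c, 0 were called in either direction (1.8% of all genes higher and 1.02% lower), with a median of -0.05. Cycs, the cytochrome c gene, had 192 and 138 CPM in differentiation medium, against 175 and 166 CPM in maintenance medium, and its media overlapped.

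Of 15 regulators of mitochondrial gene expression, 0 were called (1.8% of all genes higher and 1.02% lower), with a median fitted log2 of -0.10. Their platforms differed, with a median log2 ratio of -0.51 on PUCL@CNT1 (4 of 15 above 0) and 0.19 on PUCL (9 of 15). On PUCL the median of the subunit genes was 0.22, close to that of the regulators. Tfam, which packages mitochondrial DNA, had 104 and 117 CPM in differentiation medium on PUCL@CNT1 and PUCL, against 110.5 and 103 CPM in maintenance medium. Ppargc1a, a coactivator of mitochondrial biogenesis, had 6.47 and 0 CPM in differentiation medium, against 5.76 and 0 CPM in maintenance medium. It was detected on PUCL@CNT1 only, at 43 counts in differentiation medium and 36 in maintenance medium. The platform difference did not pass the test (edgeR adjusted p = 0.802). Nrf1 had 0.150 and 10.2 CPM in differentiation medium, against 25.1 and 2.12 CPM in maintenance medium, with no common order of platform or medium. For comparison, 94 genes with symbols of the cytosolic ribosomal protein type (Rpl or Rps and a number, Rplp or Rpsa) had a median fitted log2 of 0.07 (59 above 0). They were taken by symbol alone, without a filter on abundance, and the pattern would also take Rps6k kinase genes. Their fitted values ranged from -5.30 to 5.23. The 67 genes with symbols of mitochondrial ribosomal proteins had a median of -0.13 (28 above 0). The subunit genes had a median of 0.32. For PUCL@CNT1 over PUCL the cytosolic set was above the subunit genes in both media. Of its 94 genes, 83 had a ratio above 0 in differentiation medium (median log2 0.42) and 80 in maintenance medium (0.26). Of 79 subunit genes these were 59 (0.19) and 42 (0.04). The differences between these sets were not tested.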

How the data were processed

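The deposited files hold read counts per gene symbol, 1 file per library, as made by the authors. Bowtie2, bedtools and rn6 are named per the submitters' processing notes; versions, counting settings and strand handling are not given in the sources used here. Reads of overlapping or antisense genes may therefore not be separated, and a 3′-end count depends on the annotated gene end. Entries of 1 symbol were summed (17048 entries, 16881 symbols; no member had several). Of 82 members, 65 matched a current RefSeq symbol and 17 an older one.

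Genes that reached 10 counts in any library (10516) were scaled by TMM and fitted with edgeR 4.0.16 (R 4.3.3; quasi-likelihood test, platform and medium additive), with Benjamini-Hochberg adjustment over all genes tested and a threshold of 0.05. This leaves 1 residual degree of freedom, so the spread comes mainly from the fit across genes (prior degrees of freedom 87.2). The p-values therefore set a change mostly against a spread shared across genes. How far the platforms (or media) repeat each other in a single gene enters them only weakly. The prior degrees of freedom were 9.96 with a mean of 50 or more counts and 4.02 with a mean of 1000 or more. The printed SE is the fitted log2 change divided by the square root of F. The scripts were tested on simulated data. Ratios of 2 libraries used a prior count of 0.5 and exact 95% binomial (Clopper-Pearson) intervals, and reads carried no stated molecular identifiers, so intervals and floors cover counting error only. DESeq2 1.42.0, limma 3.58.1 (voom), other scalings, other filters, other model terms and libraries left out were tried.

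Named genes were those past a threshold or the rule of size, the 3 most abundant and the extremes of each complex, and isoform pairs; other genes in the text illustrate a count and were chosen after their values were seen. The members and lists were chosen with earlier results of these data known, and so were the filter at a mean of 1000 counts, the core and accessory classes and the ribosomal protein genes. Promoter sequences are from RefSeq (GRCr8). Cox6b1 and Cox7a1 were not among the members found by symbol, so Cox6b2 and Cox7a2 are given without them. Values of 1 complex I gene are not reported here.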

Additional observations from a re-analysis of the deposited data

Results flagged for a closer look

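For 5 members, of which Atp5s is a member by name only, the medium ratio differed between the platforms by at least 2-fold. The nearer 95% counting bound was beyond 1.5-fold. The ratios had opposite signs, although that of Cox6b2 on PUCL was -0.03. The difference was not tested because each group has 1 library. The values are the log2 ratio of differentiation over maintenance medium on PUCL@CNT1 minus that on PUCL, with a 95% interval for counting error only. The difference was 3.84 (2.74 to 4.93) for Atp5s, 2.15 (1.47 to 2.83) for Cox6b2 and 1.27 (0.84 to 1.71) for Ndufa8. It was -1.23 (-1.46 to -1.01) for Ndufs3 and -1.22 (-1.44 to -1.01) for Sdha. By the same rule of size, 15.4% of all genes tested were higher and 14.1% lower.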

How the results depend on the processing

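No paired analysis was possible because each group has 1 library and the groups share only the replicate number 1. The count of members called higher with medium was 6; it was 0 with a mean of 50 counts or more, 0 in a refit restricted to a mean of 1000 counts or more (chosen after seeing the data), 0 with no platform term and 11 in limma-voom, and 0 to 2 when 1 library was left out together with the platform term, since 3 libraries leave no residual degree of freedom with both terms. It was 4 in DESeq2, with DESeq2 size factors, with total counts and with no filter, each without Ndufa2 and Cox7a2l. The 6 genes kept their direction in every alternative with 4 libraries, and the adjusted p ranged up to 0.0980 for Ndufa4, 0.204 for Cox8a, 0.0900 for Ndufb4, 0.114 for Ndufb3, 0.211 for Ndufa2 and 0.166 for Cox7a2l. Leaving out 1 library, with the platform term dropped too, moved the median fitted medium change of the members between 0.19 and 0.41; with the medium term dropped instead, the platform median lay between -0.10 and 0.27. The fitted platform change of Cox8a lay between -0.90 and 0.20 when 1 library and the medium term were left out, and was above 0 only without PUCL@CNT1 in maintenance medium. Assembly factors called higher were 0 with a mean of 50 counts or more and 0 in DESeq2. By the rule of size, with a mean of 1000 counts or more, 2 members were higher and 0 lower with differentiation medium on PUCL@CNT1, 0 were lower on PUCL, and 0 were higher or lower with platform in either medium. With a mean of 50 counts or more, 1 was lower with differentiation medium on PUCL@CNT1, 0 were lower on PUCL, 0 were higher or lower with platform in differentiation medium and 0 higher in maintenance medium; with DESeq2 size factors 0 were lower on PUCL. The median platform ratio in differentiation medium was 0.086 with a mean of 1000 counts or more, rescaled to those genes. Without ribosomal RNA the members took 4.54% and 4.19% of counts in differentiation medium on PUCL@CNT1 and PUCL, and 3.58% and 3.73% in maintenance medium. In these filters fewer low genes were tested by construction; the other causes were not tested. Of 79 members tested, 72 had 100 or more counts in every library; for the others counting error limits the ratios.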
